A study of Mus musculus with 9 samples.

Results

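The p53 targets and cell cycle inhibitors followed here across 9 kidney arrays were 10 genes chosen by name: the cell cycle inhibitors Cdkn1a, Cdkn1b, Cdkn2a and Cdkn2b, the p53 targets Mdm2, Ccng1 and Trp53inp1, and the stress-induced genes Gadd45a, Gadd45b and Sesn2. Each was read from the brightest array row that carries its symbol alone. A value was obtained for 9 of the 10, out of 22180 genes with such a row. The row of Gadd45a is shared with another symbol, so Gadd45a has no value here.

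The samples were mouse kidneys in 3 groups of 3. The norUDCA-fed CBDL group was prefed norursodeoxycholic acid (norUDCA), a side chain-shortened bile acid, for 5 days. The common bile duct was then ligated for 3 weeks. Whether norUDCA feeding went on after ligation is not in the labels. The CBDL group had the same ligation for 3 weeks without norUDCA, and the sham group had a sham operation 3 weeks before. Strain, sex and age are not in the labels, no sham group fed norUDCA was analysed here, and nothing says whether the replicates of a group were processed separately, so the tests cover the scatter among these arrays, which may be technical.

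p53 is a transcription factor that accumulates after DNA damage and other stresses and binds response elements built from a pair of half-sites. Its best known targets arrest the cell cycle, drive apoptosis, or limit p53 itself. The cyclin-dependent kinase (CDK) inhibitors stop cells in the first gap phase: the Cip/Kip proteins encoded by Cdkn1a (p21) and Cdkn1b (p27) bind complexes of cyclins with several kinases, while the INK4 proteins encoded by Cdkn2a (p16) and Cdkn2b (p15) bind CDK4 and CDK6. In kidney, p21 is known as a protein induced in injured tubule cells, and several of these genes, Cdkn1a included, are also switched on without p53, for example by TGF-beta or inflammatory signals.

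Upstream sequences are shown first because Cdkn1a, itself a p53 target, rose after ligation while Mdm2 and Ccng1 did not pass the test. RefSeq start-site windows of 300 bases (250 before the start and 50 after, GRCm38.p6) matched 9 of the 10 genes, Trp53inp1 being the exception. Both strands were searched for the p53 half-site, which is its own reverse complement, and for TATAAA (the TATA box), TGACGTCA (a cyclic AMP response element), CCAAT (the CCAAT box, in 37.4% of all windows) and GGGCGG (the GC box, in 35.7%). Of these 9 genes 4 held a p53 half-site in a window, namely Cdkn1a, Mdm2, Ccng1 and Gadd45a, the last without a signal value here. Over all genes 8.36% of 32851 windows held one. That share counts windows, and Cdkn1a and Cdkn2a have 2 windows each, so it is not a like count. Several of the genes were also chosen as p53 targets. The stretches of 120 bases below run 5′ to 3′ on the gene's strand, with the p53 half-sites in capitals for the first 3 genes.
Cdkn1a: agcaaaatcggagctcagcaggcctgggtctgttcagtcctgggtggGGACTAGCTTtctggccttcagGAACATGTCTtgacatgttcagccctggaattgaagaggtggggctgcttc
Mdm2: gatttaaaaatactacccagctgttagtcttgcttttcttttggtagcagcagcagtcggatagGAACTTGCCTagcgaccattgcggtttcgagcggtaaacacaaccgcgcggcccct
Ccng1: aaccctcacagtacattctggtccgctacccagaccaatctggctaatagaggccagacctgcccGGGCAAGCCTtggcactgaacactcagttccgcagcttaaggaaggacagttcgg
Cdkn2b: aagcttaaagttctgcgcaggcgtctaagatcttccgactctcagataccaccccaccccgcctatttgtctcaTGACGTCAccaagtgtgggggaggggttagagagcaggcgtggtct
Gadd45b: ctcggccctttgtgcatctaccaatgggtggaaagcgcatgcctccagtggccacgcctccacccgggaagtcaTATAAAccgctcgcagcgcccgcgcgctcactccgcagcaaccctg
The Cdkn1a stretch (chr17:29090859-29090978, plus strand) ends at the base before the first of its 2 start sites in the table. Its exact matches to the half-site begin 73 and 51 bases before that start with 12 bases between them. A pair of exact matches separated by at most 13 bases was found in 0.073% of all windows. The letters directly after the second match, tgacatgttc, miss the half-site pattern in the first letter only, so they were not counted or marked. The window of the other Cdkn1a start site held no p53 half-site and 2 matches to GGGCGG. The Mdm2 stretch (chr10:117710889-117711008, minus strand) holds 1 half-site 186 bases before the start. The Ccng1 stretch (chr11:40755417-40755536, minus strand) holds 1 at 185 bases before it. The windows of Cdkn2b and Gadd45b, genes that rose after ligation, held no match to the p53 half-site. Capitals there mark TGACGTCA in Cdkn2b (chr4:89311033-89311152, minus strand; 1.79% of all windows) and TATAAA in Gadd45b (chr10:80929971-80930090, plus strand; 13.6% of all windows). A match is only a match of letters, and response elements outside these windows were not searched.

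The values are log2 signals normalized by the authors, and a difference of 1 is a doubling. Differences were tested with limma over all 22180 genes, and a gene is said to have risen or fallen when its Benjamini-Hochberg adjusted p was under 0.05. Medians of the arrays lay between 5.7 and 5.8. The arrays sham_159 and CBDL_165 stood apart on the second principal component, at -34.5 and -22.9 against 3.4 to 12 for the other 7. Both also read high for these genes: sham_159 was the highest sham array for 8 of the 9 genes (and for 56.1% of all genes), and CBDL_165 the highest CBDL array for 8 of the 9 (39.7% of all genes). Results are therefore also given without both. Nephron markers placed the samples as kidney, with the proximal tubule markers Lrp2, Cubn, Slc34a1, Slc5a2, Slc5a12 and Slc22a6 each at a group mean of 9.48 or more in every group.

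The first comparison asks what ligation does to these genes in the kidney. After 3 weeks of ligation, Cdkn1a rose 4.07-fold, Gadd45b 2.07-fold and Cdkn2b 1.80-fold, while Mdm2, Ccng1, Trp53inp1, Sesn2, Cdkn1b and Cdkn2a did not pass the test. Of all genes, 21.8% were called in this comparison (10.3% higher and 11.5% lower), so 3 of 9 was read as a share near the background, and what follows is about which genes moved and how far. At an unadjusted p under 0.05 the count was also 3 of 9, beside 33.3% of all genes. The median difference of the 9 genes was 0.22, beside -0.06 over all genes.

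**Figure D1:**
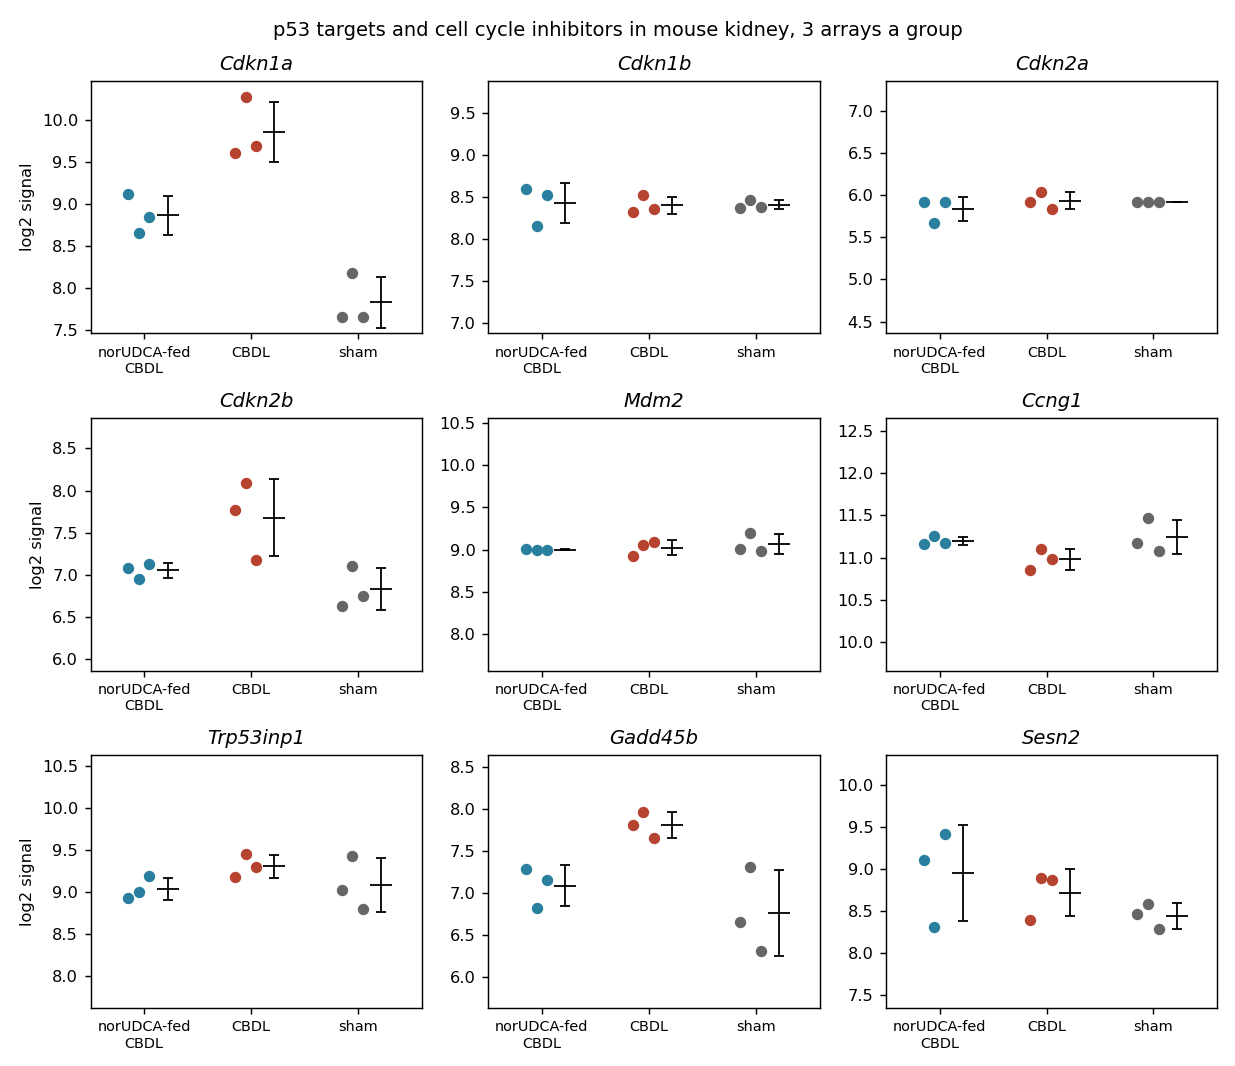
Log2 signal of the 9 genes on each array (points) with the mean and SD of each group (bars, n = 3), for norUDCA-fed CBDL, CBDL and sham kidney; every panel spans 3 log2 units. Cdkn1a separates the 3 groups, with CBDL at 9.61 to 10.27 and sham at 7.66 to 8.18, while the points of Mdm2 lie between 8.92 and 9.20 in all groups.

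Among the kinase inhibitors, Cdkn1a had log2 signals of 9.61, 10.27 and 9.70 in CBDL kidneys, against 7.66, 8.18 and 7.66 in sham kidneys. The lowest CBDL array lay well above the highest sham array. The difference was 2.03 (SE 0.21, 95% interval 1.56 to 2.49, limma adjusted p = 0.000146), which ranked Cdkn1a 388th of the 22180 genes by p. Without sham_159 and CBDL_165 it was 1.99 (limma adjusted p = 0.000632).

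Cdkn2b had 7.77, 8.09 and 7.18 in CBDL kidneys, against 6.63, 7.11 and 6.75 in sham kidneys. The groups did not overlap, but CBDL_170 was only just above sham_159. Groups that do not overlap were found for 35.6% of all genes in this comparison (15.6% higher and 20% lower). The difference of 0.85 (SE 0.21, limma adjusted p = 0.0174) lost its call without sham_158, sham_160, CBDL_164 or CBDL_165 (adjusted p between 0.0541 and 0.0634), and held without sham_159 and CBDL_165 together (0.78, adjusted p = 0.0290).

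The other 2 inhibitors did not pass the test. Cdkn1b averaged 8.40 ± 0.10 in CBDL kidneys and 8.41 ± 0.05 in sham kidneys (SD, n = 3 each), a difference of -0.01 with an interval of -0.29 to 0.28. Cdkn2a averaged 5.93 ± 0.10 in CBDL and 5.92 ± 0 in sham kidneys (SD, n = 3 each), with an interval of -0.22 to 0.24. Its deposited signal was the identical value of 5.92 on 6 of the 9 arrays, the 3 sham arrays among them. Identical values also occurred for called genes named below. Phlda3 read 6.64 on CBDL_170 and the 3 norUDCA-fed arrays, and Cdk4 read 9.62 on the 3 norUDCA-fed arrays. Ccnb2 read 7.10 on norUDCA_CBDL_172 and norUDCA_CBDL_179. A group of identical values adds no spread to the variance behind a call, and the effect on these calls was not tested. Cdkn2a encodes both p16 and the p53-stabilizing p19Arf from alternative first exons, and this row does not tell the transcripts apart.

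Mdm2, Ccng1 and Trp53inp1, listed above as p53 targets, did not pass the test either. Mdm2, whose product is the ubiquitin ligase that removes p53 and which p53 itself induces, had 8.92, 9.06 and 9.09 in CBDL kidneys, against 9.01, 9.20 and 8.99 in sham kidneys. The groups overlapped, and the interval of the difference, -0.26 to 0.18, ends far below the 1.56 at which that of Cdkn1a begins. Ccng1, which encodes cyclin G1, a p53 target that recruits a phosphatase to MDM2, had 10.85, 11.10 and 10.99 in CBDL kidneys, against 11.18, 11.46 and 11.08 in sham kidneys. Its mean was lower after ligation (-0.26, SE 0.12, limma adjusted p = 0.164), with CBDL_165 just above sham_160. Trp53inp1, which encodes a p53-induced nuclear protein that promotes p53 activity and autophagy, averaged 9.31 ± 0.14 in CBDL and 9.09 ± 0.32 in sham kidneys (SD, n = 3 each, interval -0.13 to 0.58).

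The change of Cdkn1a after ligation, the largest of the 9, was also set against that of each other member. A positive mean excess over each of them after ligation follows from that choice. The permutation p values for CBDL against sham do not allow for it. Within each array the signal of Cdkn1a minus that of Mdm2 lay between 0.61 and 1.21 in CBDL kidneys and between -1.34 and -1.02 in sham kidneys, so the change of Cdkn1a was larger by 2.07. The same within-array difference did not overlap between CBDL and sham for any of the 8 other genes, with excesses of 0.97 (over Gadd45b) to 2.29 (over Ccng1). Each had an exact two-sided permutation p of 0.1 (0.1 after Benjamini-Hochberg adjustment over the 8), the smallest that 3 arrays against 3 can give. For norUDCA-fed CBDL against CBDL the difference overlapped for Gadd45b (-0.27, exact permutation p = 0.3) and Cdkn2b (-0.36, exact permutation p = 0.2). For each other gene it did not overlap, with an exact permutation p of 0.1 (0.133 after adjustment). Since 3 arrays against 3 cannot give an exact p under 0.1, this test could not tell the fall of Cdkn1a apart from the change of any member. No likeness of the changes follows from it. For norUDCA-fed CBDL against sham the difference overlapped for Sesn2 (0.53, exact permutation p = 0.2). Each other gene there had an exact permutation p of 0.1 (0.114 after adjustment).

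Of the stress-induced genes, Gadd45b encodes a protein that acts on the stress kinase pathways of p38 and JNK. The gene is a target of NF-kB and TGF-beta signalling. Gadd45b had 7.81, 7.97 and 7.66 in CBDL kidneys, against 6.65, 7.31 and 6.31 in sham kidneys. The groups did not overlap, and sham_159 was the sham array closest to the ligated ones. The difference was 1.05 (SE 0.23, limma adjusted p = 0.00896), and 1.25 without sham_159 and CBDL_165 (adjusted p = 0.00462). Sesn2, which encodes sestrin 2, a sensor of leucine that restrains mTORC1 and is induced by p53 and by the transcription factor ATF4, averaged 8.72 ± 0.28 in CBDL and 8.45 ± 0.15 in sham kidneys (SD, n = 3 each), a difference of 0.27 with an interval of -0.29 to 0.84.

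**Figure D2:**
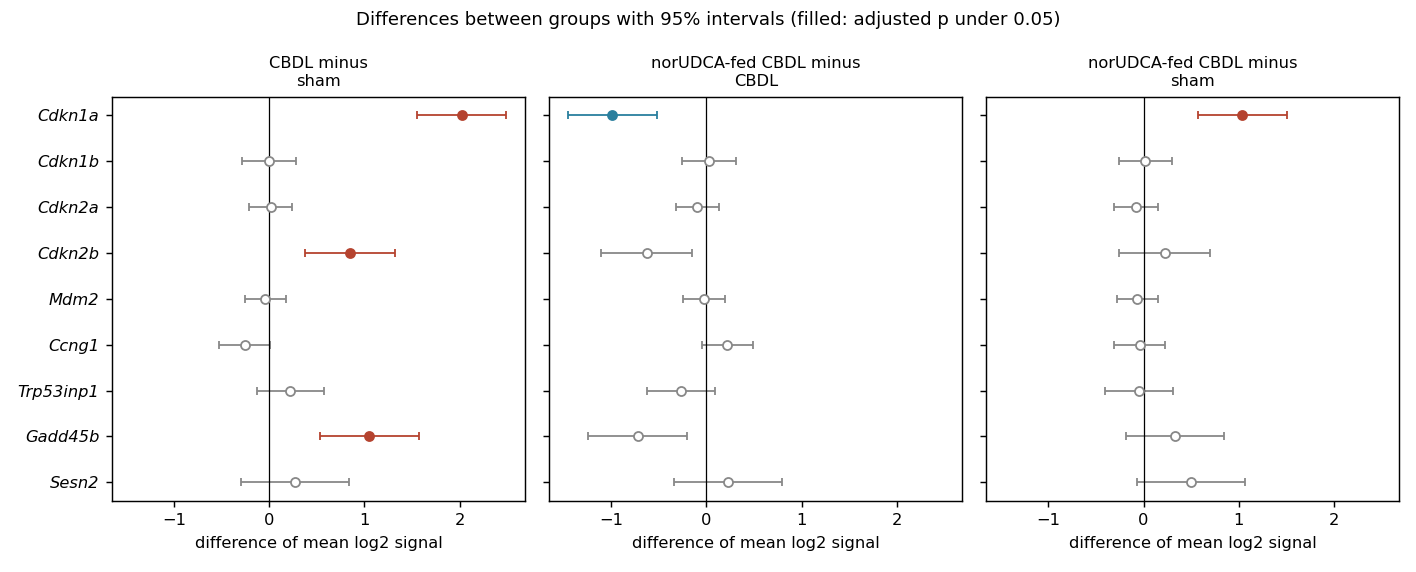
Differences of mean log2 signal (points) with 95% intervals (bars) for the 9 genes in the 3 comparisons; filled points had an adjusted p under 0.05. Cdkn1a is filled in each panel, at 2.03, -0.99 and 1.04, and Mdm2 lies within 0.07 of zero in each.

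The second comparison asks how these genes differed between norUDCA-fed CBDL and CBDL kidneys. Cdkn1a was 1.98-fold lower in norUDCA-fed CBDL than in CBDL kidneys and was the only 1 of the 9 genes to pass, in a comparison in which 6.8% of all genes were called (3.61% higher and 3.2% lower). Cdkn1a had 9.12, 8.65 and 8.84 in norUDCA-fed CBDL kidneys, against 9.61, 10.27 and 9.70 in CBDL kidneys. The groups did not overlap, as for 24.2% of all genes (11.6% higher and 12.6% lower). The difference of -0.99 (SE 0.21, limma adjusted p = 0.0235) lost its call without CBDL_164, CBDL_165, norUDCA_CBDL_175 or norUDCA_CBDL_179 (adjusted p between 0.0523 and 0.101), while its size stayed between -1.11 and -0.78 whichever array was left out.

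Gadd45b and Cdkn2b, the other genes that rose after ligation, had lower means in norUDCA-fed CBDL kidneys without passing the test. Gadd45b had 7.29, 6.82 and 7.16 in norUDCA-fed CBDL kidneys, against 7.81, 7.97 and 7.66 in CBDL kidneys, a difference of -0.72 (SE 0.23, limma adjusted p = 0.103) between groups that did not overlap. It passed without sham_159 (adjusted p = 0.0288), which enters only through the shared estimate of spread, and when only the 6 arrays of these groups were fitted (adjusted p = 0.0483). Cdkn2b had 7.08, 6.95 and 7.12 in norUDCA-fed CBDL kidneys, against 7.77, 8.09 and 7.18 in CBDL kidneys, a difference of -0.63 (SE 0.21, limma adjusted p = 0.123). CBDL_170 lay next to the norUDCA-fed arrays, and without it the difference was -0.88 (adjusted p = 0.0123).

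The remaining members did not pass between the ligated groups. Mdm2 had 9.01, 8.99 and 8.99 in norUDCA-fed CBDL kidneys, with an interval of the difference from CBDL of -0.24 to 0.19. Ccng1 had 11.17, 11.26 and 11.18 in norUDCA-fed CBDL kidneys, all above the 3 CBDL arrays (0.22, SE 0.12, limma adjusted p = 0.382). Sesn2 was the most scattered gene, at 9.11, 8.32 and 9.42 in norUDCA-fed CBDL kidneys, against 8.40, 8.89 and 8.87 in CBDL kidneys. Its interval ran from -0.34 to 0.80, the widest of the 9. Cdkn1b (interval -0.26 to 0.31), Cdkn2a (-0.32 to 0.14) and Trp53inp1 (-0.62 to 0.09) did not pass either.

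The third comparison asks what remained different from sham kidney after norUDCA and ligation. It shares its arrays with the comparisons above. Cdkn1a was 2.05-fold higher in norUDCA-fed CBDL than in sham kidneys, at 9.12, 8.65 and 8.84 against 7.66, 8.18 and 7.66, with no overlap (22.5% of all genes did not overlap, 8.96% higher and 13.5% lower). The difference was 1.04 (SE 0.21, limma adjusted p = 0.0294) where 3.18% of all genes were called (1.82% higher and 1.37% lower), and no other member passed. The call ended without sham_158, sham_160 or any 1 of the norUDCA-fed arrays (adjusted p between 0.0526 and 0.126), and without sham_159 and CBDL_165 together the difference was 1.21 (adjusted p = 0.0103). Sesn2 followed at 0.50 (SE 0.25, limma adjusted p = 0.364), Gadd45b at 0.33 and Cdkn2b at 0.22. Mdm2 (-0.07), Ccng1 (-0.04), Trp53inp1 (-0.05), Cdkn1b (0.02) and Cdkn2a (-0.08) had the smaller differences.

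Cdkn1a therefore averaged 8.87 ± 0.23 in norUDCA-fed CBDL, 9.86 ± 0.36 in CBDL and 7.84 ± 0.30 in sham kidneys (SD, n = 3 each), and no 2 groups overlapped. Gadd45b averaged 7.09 ± 0.24 in norUDCA-fed CBDL, 7.81 ± 0.16 in CBDL and 6.76 ± 0.51 in sham kidneys. Cdkn2b averaged 7.05 ± 0.09 in norUDCA-fed CBDL, 7.68 ± 0.46 in CBDL and 6.83 ± 0.25 in sham kidneys. In both genes CBDL was the highest group, and norUDCA-fed CBDL overlapped with sham. With variances that were not moderated, the adjusted p of Cdkn2b (0.0713) and Gadd45b (0.0505) after ligation and those of Cdkn1a against CBDL (0.111) and against sham (0.136) in norUDCA-fed CBDL kidneys missed the threshold, while the call of Cdkn1a after ligation held.

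Further genes of the pathway were read from a list of 27, of which 24 had a value; Trp53, which encodes p53, Bax and Ddb2 have no row of their own and were not analysed here. After ligation 10 of the 24 rose and 14 did not pass, where 10.3% of all genes rose and 11.5% fell. The median difference was 0.32 (-0.06 over all genes). The 10 were Btg2 (1.35), Plk2 (1.04), Apaf1 (0.99), Pmaip1 (0.77), Tnfrsf10b (0.71), Gtse1 (0.70), Plk3 (0.63), Phlda3 (0.61), Ephx1 (0.48) and Mdm4 (0.35), as differences of log2 signal. Without sham_159 and CBDL_165, 8 of the 24 rose, and with 1 array left out the number was 7 to 10.

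Btg2, an antiproliferative immediate early gene, had 8.08, 8.29 and 8.42 in CBDL kidneys, against 6.84, 7.19 and 6.69 in sham kidneys (SE 0.15, limma adjusted p = 0.000188). Plk2, a polo-like kinase, had 8.45, 8.82 and 8.64 in CBDL kidneys, against 7.38, 7.81 and 7.59 in sham kidneys (SE 0.14, limma adjusted p = 0.000722). Apaf1, the core of the apoptosome (limma adjusted p = 0.000964), Pmaip1, which encodes the BH3-only protein NOXA (0.00266), and Tnfrsf10b, a TRAIL death receptor (0.00261), also rose. Other genes of the list with a part in apoptosis did not pass, namely Bbc3, which encodes the BH3-only protein PUMA (0.28, adjusted p = 0.127), the death receptor gene Fas (0.37, adjusted p = 0.245), Perp (-0.54, adjusted p = 0.0623), Pidd1 (0.0048) and Ei24 (-0.14). Nor did Xpc, a damage sensor of nucleotide excision repair (-0.06), Rrm2b, a ribonucleotide reductase subunit (-0.26), and the translesion polymerase gene Polk (0.11). Zmat3 (-0.05), Aen (-0.01) and Ppm1d, which encodes a phosphatase that switches p53 signalling off (0.30), did not pass either. The same held for Eda2r (0.66, limma adjusted p = 0.0685), Tigar (-0.18) and Steap3 (-0.08).

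**Figure D3:**
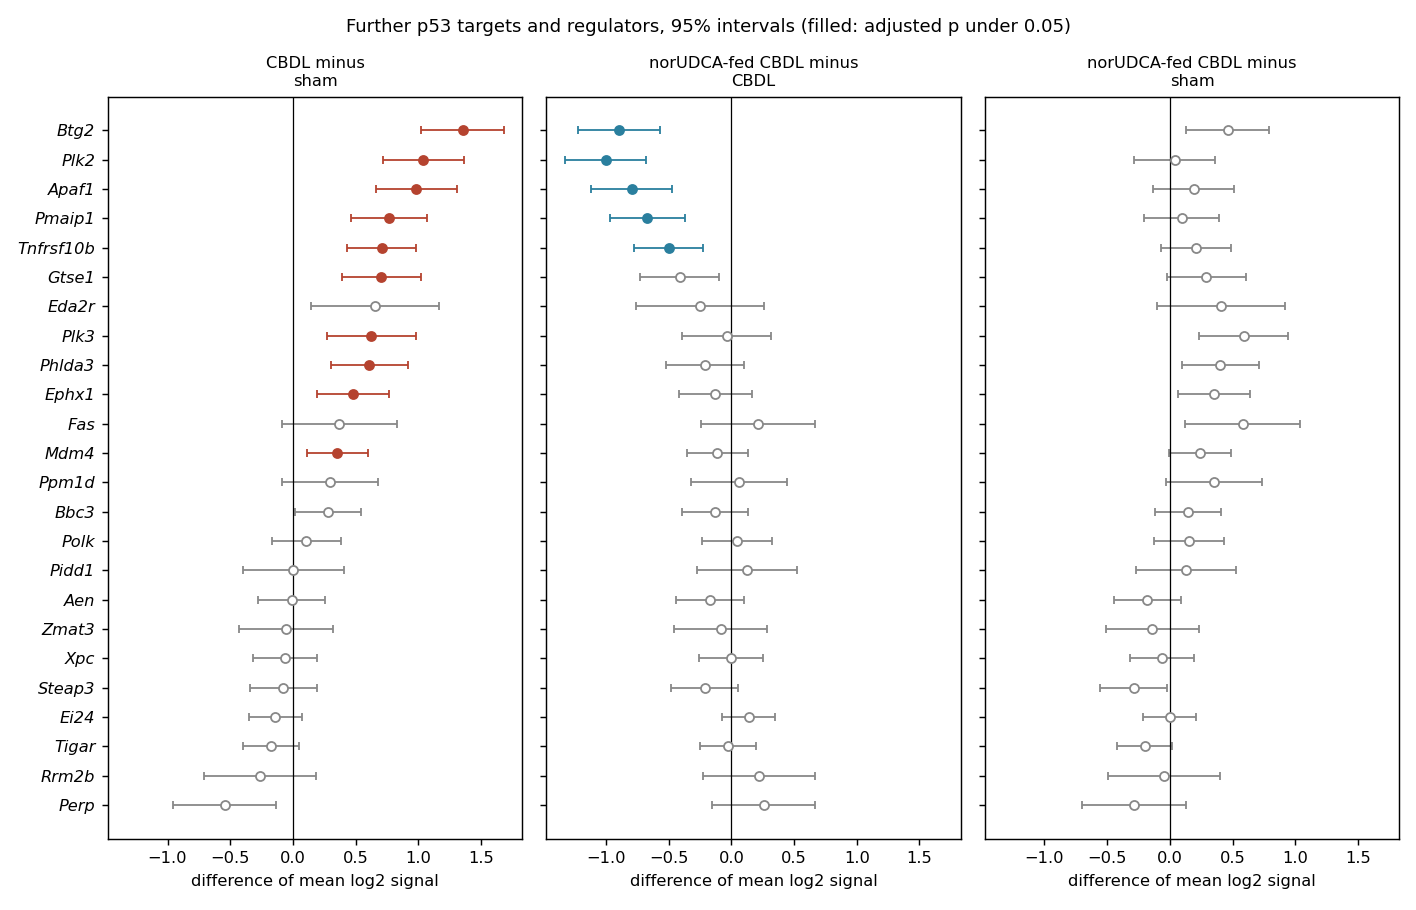
Differences of mean log2 signal with 95% intervals for 24 further p53 targets and regulators, in the order of their change after ligation; filled points had an adjusted p under 0.05. Btg2 leads at 1.35 and Perp is lowest at -0.54 in CBDL minus sham, and the 5 filled genes of the middle panel are Plk2, Btg2, Apaf1, Pmaip1 and Tnfrsf10b.

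In norUDCA-fed CBDL against CBDL kidneys 5 of the 24 fell and 19 did not pass (median -0.12, beside -0.003 over all genes). Of all genes, 3.2% fell and 3.61% rose in this comparison. Plk2 had 7.77, 7.47 and 7.66 in norUDCA-fed CBDL kidneys, a difference from CBDL of -1.0 (SE 0.14, limma adjusted p = 0.00815). Btg2 had 7.47, 7.23 and 7.41 there, a difference of -0.89 (SE 0.15, limma adjusted p = 0.0110). Apaf1 (-0.80), Pmaip1 (-0.67) and Tnfrsf10b (-0.50) also fell. Without sham_159 and CBDL_165, 3 fell, and the number was 1 without norUDCA_CBDL_175, 2 without norUDCA_CBDL_172 and 3 without CBDL_164 or CBDL_165. Against sham kidneys none of the 24 passed limma's test in norUDCA-fed CBDL kidneys, although 6 had an unadjusted p under 0.05, as did 16.3% of all genes. The lowest was that of Plk3 (0.59, adjusted p = 0.0890). With array weights 3 of the 24 rose.

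Of 9 relatives of the listed genes only Sesn1, a p53-induced sestrin, rose after ligation (0.50, SE 0.15, limma adjusted p = 0.0361). Of all genes, 10.3% rose in this comparison. The number of relatives that rose was 0 or 1 with 1 array left out. Cdkn2c, an INK4 inhibitor (-0.39, adjusted p = 0.0630), Ccng2, the relative of cyclin G1 (0.38, adjusted p = 0.0896), Cdkn1c (0.05), Cdkn2d (0.09) and Gadd45g (-0.02) did not pass. Of 7 genes of the integrated stress response, which also feeds Sesn2 and Gadd45 genes, Atf3 (1.22, SE 0.12, adjusted p = 0.000116) and Asns (0.76, adjusted p = 0.00754) rose after ligation. That is 2 of 7, beside the same 10.3% of all genes. Atf4 (0.15), Ddit3 (0.15), Trib3 (0.12), Chac1 (0.09) and Ppp1r15a (0.27) did not pass. Atf3 fell in norUDCA-fed CBDL against CBDL kidneys (-0.86, SE 0.12, limma adjusted p = 0.00815).

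Genes of cell division, which the inhibitors restrain, were also read in the ligated kidneys. Of 15 replication and mitosis genes 9 rose after ligation and 6 did not pass (median 0.58, beside -0.06 over all genes). Of all genes, 10.3% rose and 11.5% fell. Mki67, the proliferation marker Ki-67, had 8.05, 8.37 and 8.36 in CBDL kidneys, against 6.6, 5.91 and 6.41 in sham kidneys (1.96, SE 0.17, limma adjusted p = 6.68e-05). Top2a (1.30), Mcm3 (1.08), Mcm4 (0.96) and Mcm5 (0.89), which unwind or untangle DNA in replication, were among the others. Of 19 cyclins, kinases, RB and E2F genes 6 rose and 1 fell, beside 21.8% of all genes called in either direction. Ccnb2 (1.12), Ccna2 (0.95), E2f8 (0.73), Cdk1 (0.57), Cdk4 (0.52) and Cdk6 (0.43) rose, and Rbl2, the RB relative p130 of resting cells, fell by 0.44. The cyclins of the first gap phase, Ccnd1 (-0.09), Ccnd2 (0.35), Ccnd3 (-0.16) and Ccne1 (0.15), did not pass. The number of cyclin and kinase genes that rose was 3 to 7 with 1 array left out, 3 being without sham_160. No gene of this list fell without sham_159 and CBDL_165 together, with array weights, quantile normalization, unmoderated variances or only the 6 arrays compared, or without any 1 of sham_158, sham_159, CBDL_165, CBDL_170, norUDCA_CBDL_172 and norUDCA_CBDL_179, so the call of Rbl2 ended there.

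**Figure D4:**
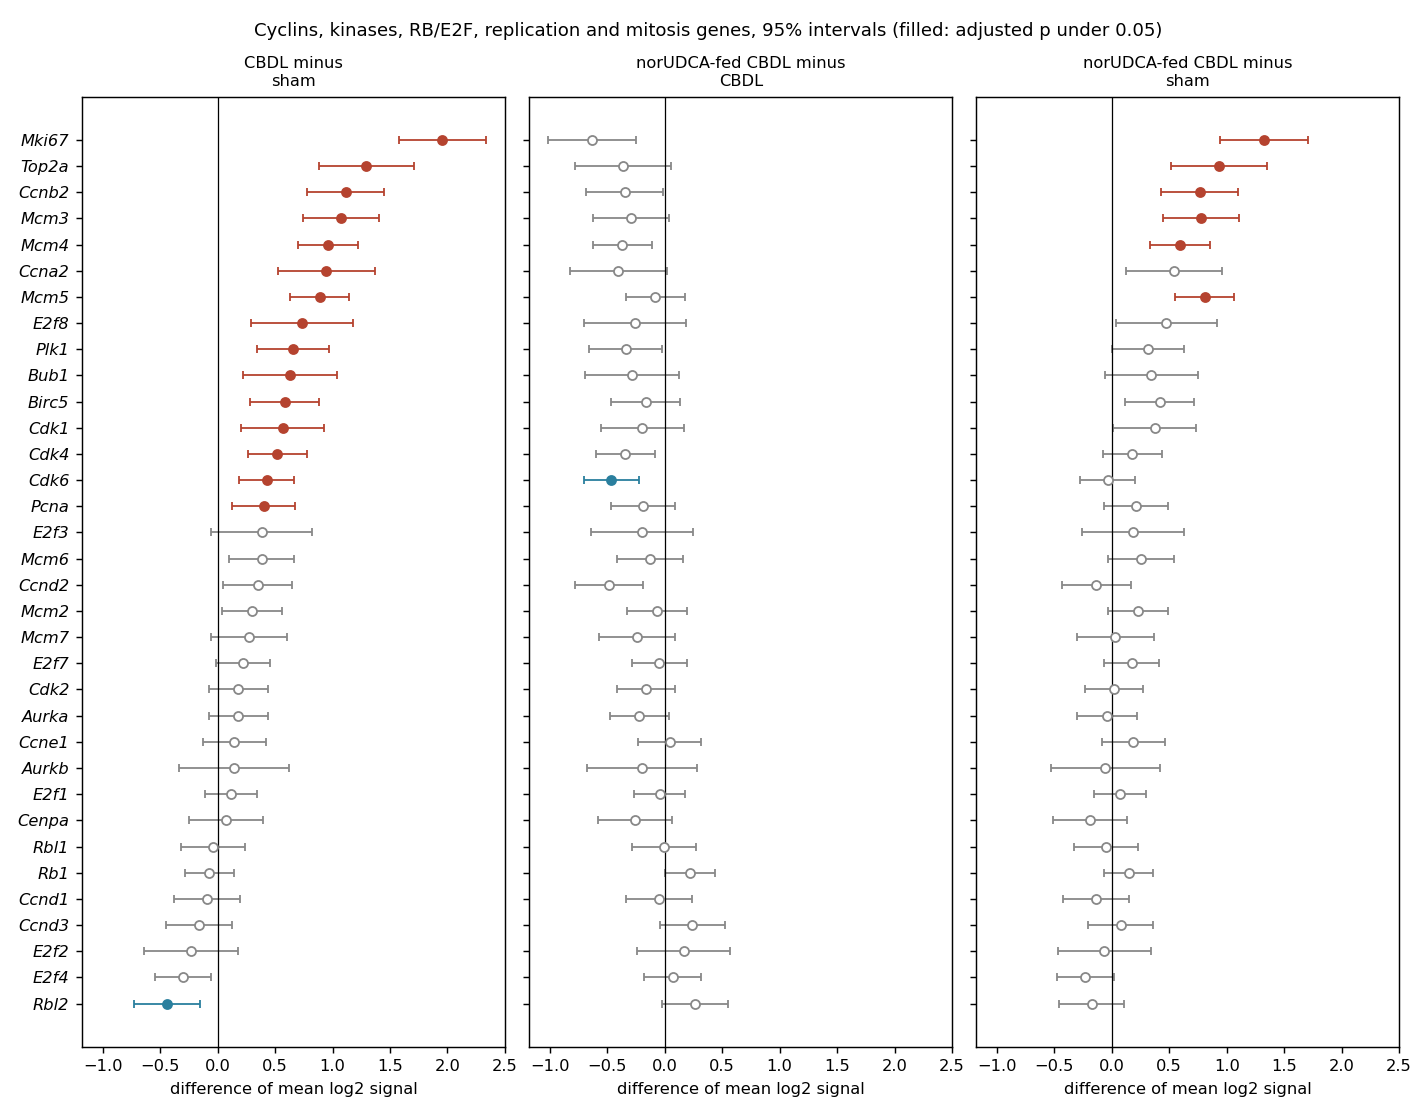
Differences of mean log2 signal with 95% intervals for 19 cyclin, kinase, RB and E2F genes and 15 replication and mitosis genes in the 3 comparisons, in the order of their change after ligation; filled points had an adjusted p under 0.05. Mki67 leads at 1.96 in CBDL minus sham and stays filled at 1.32 in norUDCA-fed CBDL minus sham, where Cdk6 lies at -0.04.

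In norUDCA-fed CBDL against CBDL kidneys, where 3.2% of all genes fell, Cdk6 was the only gene of these lists to pass. It fell by 0.46 (SE 0.11, limma adjusted p = 0.0343). The call ended, and no gene of its list passed, without sham_159 and CBDL_165 together, with unmoderated variances or only the 6 arrays compared, and without sham_158 or any 1 of the CBDL or norUDCA-fed arrays. No replication gene passed, where 3 of 15 had an unadjusted p under 0.05, as did 19.3% of all genes. All 15 had a lower mean in norUDCA-fed CBDL than in CBDL kidneys (median -0.24, beside -0.003 over all genes). The list was not tested as a set. Among the alternatives, 1 of these genes fell with a variance trend, array weights, only the 6 arrays compared or the filter on dim genes. The count was also 1 without sham_158 or sham_159, and 0 in the other settings. Mki67 had 7.69, 7.62 and 7.57 in norUDCA-fed CBDL kidneys, a difference from CBDL of -0.63 that missed the threshold (adjusted p = 0.0565), between groups that did not overlap. Against sham kidneys 1.82% of all genes rose in norUDCA-fed CBDL kidneys. Those of these lists that rose were Mki67 (1.32), Top2a (0.93), Mcm5 (0.81), Mcm3 (0.78), Mcm4 (0.59) and Ccnb2 (0.77). The call of Ccnb2 was lost without any 1 of the norUDCA-fed arrays and without sham_159 and CBDL_165 together, since no gene of its list then passed. The number of replication and mitosis genes that rose, 5 with all arrays, was 2 without sham_160 or any 1 of the norUDCA-fed arrays, 3 without sham_158, 1 with unmoderated variances and 8 with array weights.

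The 5 genes of the whole table whose profile lay nearest to that of Cdkn1a over the 9 arrays, each centred on its own mean, were Slc25a24, Cdh3, Ctxn1, Golm1 and Nfkbiz. Their root-mean-square differences from Cdkn1a were 0.160 to 0.177 log2 units, where Cdkn1a itself had an SD of 0.915 over the arrays. Slc25a24, a mitochondrial ATP-magnesium carrier, averaged 8.35 in norUDCA-fed CBDL, 9.32 in CBDL and 7.18 in sham kidneys. Cdh3 encodes P-cadherin and Nfkbiz a nuclear regulator of NF-kB target genes. The 9 arrays share their 3 groups, so likeness reflects the order of the groups first.

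Markers of several cell types also changed after ligation, some up and some down, where 10.3% of all genes rose and 11.5% fell. All 7 macrophage markers rose after ligation (median 2.45), and their summed linear signal was 2935 to 3227 in norUDCA-fed CBDL, 4956 to 9690 in CBDL and 1505 to 2152 in sham kidneys. Of the 7, 6 fell in norUDCA-fed CBDL against CBDL kidneys, beside 3.2% of all genes. All 5 fibroblast markers rose after ligation (median 1.24). Their sums were 4655 to 4786 in norUDCA-fed CBDL, 6776 to 7821 in CBDL and 2561 to 3470 in sham kidneys. Of the 5, 2 fell in norUDCA-fed CBDL against CBDL kidneys. All 6 proximal tubule markers fell after ligation (median -1.11). Their sums were 27130 to 28720 in norUDCA-fed CBDL, 11685 to 19804 in CBDL and 34298 to 35732 in sham kidneys. Of the 6, 5 rose in norUDCA-fed CBDL against CBDL kidneys (median 1.01), beside 3.61% of all genes. The 4 neutrophil markers S100a8, S100a9, Ly6g and Retnlg were dim, with group means of at most 5.1, and Retnlg alone among them rose after ligation (0.89, adjusted p = 0.0234). Of 4 adipocyte markers, Adipoq (2.10, adjusted p = 0.000495) and Cidec (3.13, adjusted p = 0.00937) rose after ligation, and Adipoq fell in norUDCA-fed CBDL against CBDL kidneys (-1.48, adjusted p = 0.0148). Their sums were 1038 to 2314 in norUDCA-fed CBDL, 1394 to 4085 in CBDL and 933 to 1202 in sham kidneys. In the remaining marker lists no gene rose after ligation. Of collecting duct markers 2 of 4 fell (median -0.90), as did 2 of 4 of the thick limb and distal tubule (-0.32). Among podocyte markers 1 of 3 fell (-0.06), among endothelial markers 1 of 4 (0.26) and among lymphocyte markers 1 of 4 (-0.04). In whole kidney RNA a change in the number of cells of a type and a change in RNA per cell cannot be told apart, and the part of these cells in the changes of Cdkn1a, Cdkn2b and Gadd45b was not tested.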

How the data were processed

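RNA of 9 mouse kidneys, extracted with TRIzol and labelled with a WT PLUS kit (per the labels' protocols), was hybridised to whole-transcript arrays. The authors deposited log2 signals, made by RMA in Partek 6.6, per the submitters' processing notes. Further filters and the build of the probe sets are not given in the sources used here. Rows naming a single gene symbol were kept (23521 of 41345, with 1814 naming several and 16010 none). The brightest row stood for each gene, which left 22180 genes with no filter on low signal. The number of arrays limits the precision.

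The fit used limma 3.58.1 (R 4.3.3) on all 9 arrays, a mean for each group, and moderated variances with 6 residual and 3.77 prior degrees of freedom. Tests were two-sided, with Benjamini-Hochberg adjustment over all genes, and every adjusted p comes from this fit unless a permutation test is named. Intervals are at the 95% level. The fit was tested on simulated data. All 9 measured members are named. Of the other lists, counts and the 4 genes of lowest p were to be named, and list genes beyond these were picked with their values in view. Members and lists were chosen with earlier results of these data known. Promoter sequences come from RefSeq, GRCm38.p6. Alternatives were a variance trend, unmoderated variances, array weights, fits of only the 6 arrays compared, quantile normalization, a filter on dim genes, the mean of all rows of a gene, and arrays left out.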

Additional observations from a re-analysis of the deposited data

How the results depend on the processing

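With unmoderated variances the number of measured members called was 1 for CBDL against sham (3 with moderation), 0 for norUDCA-fed CBDL against CBDL and 0 for norUDCA-fed CBDL against sham (1 each with moderation), and with only the 6 arrays compared it was 2 for norUDCA-fed CBDL against CBDL. With 1 array left out it was 2 to 3, 0 to 2 and 0 to 1 in that order of comparisons. The number of all genes called for norUDCA-fed CBDL against CBDL was 25 unmoderated, 912 with the 6 arrays, 749 without sham_159 and CBDL_165 (a setting chosen with the data in view) and 278 to 2043 with 1 array left out (1509 in all arrays). For norUDCA-fed CBDL against sham it was 169 unmoderated, 1638 with array weights and 156 to 822 with 1 array left out (706 in all arrays). For CBDL against sham it was 3794 to 4604 with 1 array left out (4844 in all arrays). Differences changed sign only for genes without a call. For CBDL against sham these were Cdkn2a (-0.0083 with array weights, -0.065 with quantile normalization, -0.040 without both arrays), Cdkn1b (0.033 with quantile normalization) and Mdm2 (0.032 with quantile normalization, 0.0094 without both arrays). For norUDCA-fed CBDL against CBDL it was Mdm2 (0.0011 with array weights). For norUDCA-fed CBDL against sham these were Ccng1 (0.014 with array weights, 0.058 with quantile normalization, 0.073 without both arrays), Trp53inp1 (0.041, 0.00043 and 0.13) and Mdm2 (0.0030 without both arrays). With 1 array left out, Cdkn1b ran from -0.065 to 0.032, Mdm2 from -0.081 to 0.027 and Cdkn2a from -0.040 to 0.059 for CBDL against sham. Cdkn1b ran from -0.060 to 0.16, Mdm2 from -0.074 to 0.0095 and Sesn2 from -0.0066 to 0.55 for norUDCA-fed CBDL against CBDL. Cdkn1b ran from -0.065 to 0.15, Mdm2 from -0.11 to 0.0030, Ccng1 from -0.12 to 0.073 and Trp53inp1 from -0.19 to 0.13 for norUDCA-fed CBDL against sham. The cause of these changes was not tested. No paired analysis was possible because the groups share no replicate numbers.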
